A study of Mus musculus with 6 samples.

Results

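The TRIM genes encode the tripartite motif proteins, most of them ubiquitin ligases, and are described here in MuTuDC1940 cells with and without poly(I:C). They were chosen by symbol, as every gene named Trim with a number and at most 1 letter, whose level averaged 0.5 TPM or more in the 4 libraries used. TPM is transcript abundance relative to a fixed total of 1000000 per library and takes account of transcript length. Of 66 such symbols with a transcript in the deposited table, 39 reached this limit, among 12520 genes tested in all. The limit is a mean over both groups, yet no gene reached it through the treated libraries alone, since the lowest untreated mean among the 39 was 0.566 TPM. MuTuDC1940 is an established mouse line used as a model of type 1 conventional dendritic cells, the subset that presents engulfed antigen to CD8 T cells. Poly(I:C), a synthetic RNA duplex, mimics the double-stranded RNA of viruses. The series holds 3 untreated samples and 3 treated ones, kept for 18 hours with 5 µg/ml of poly(I:C). All samples are the same line, which limits them as a model of dendritic cells in tissue. Polyadenylated RNA was sequenced. The header of the table holds 5 names for 6 value columns, so 2 columns cannot be placed in a group, and the comparison uses the columns headed NT01 and NT02 (untreated) and PolyIC01 and PolyIC02 (poly(I:C)).

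A TRIM protein typically carries a RING domain, which passes ubiquitin from an E2 enzyme to a target, followed by B-box zinc fingers and a coiled coil through which the proteins pair. The C-terminal domain differs between subfamilies and sets what is bound: most often a PRY-SPRY domain, in others a PHD finger with a bromodomain, NHL repeats or a microtubule-binding COS box. Many PRY-SPRY members act in antiviral defence, as restriction factors or as ligases that tune the RNA and DNA sensing pathways, and several are known interferon-stimulated genes. In rodents the relatives of primate TRIM5, a retroviral capsid restriction factor, have multiplied into a cluster of Trim5, Trim12, Trim30 and Trim34 genes.

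Libraries of a group were close to each other, with Pearson's r of log2(TPM + 1) across the 12520 genes of 0.997 for both same-group pairs and 0.956 to 0.959 for pairs across groups; genes are not independent replicates. The sequencing depth is unknown, because TPM keeps no record of it. Defining genes of the labelled cell type were present: 9 of 9 type 1 conventional dendritic cell markers passed the limit, with 5 that rose and 3 that fell. Their summed TPM was 3373 to 3423 in untreated and 3527 to 3609 in treated libraries. Most of this sum was Irf8, at 2482 and 2477 TPM in untreated and 2558 and 2639 TPM in treated libraries. Batf3 was at 145 and 143 TPM, then 114 and 120 TPM. Flt3 was at 9.13 and 9.91 TPM, then 5.62 and 5.00 TPM. Tlr3 was at 261 and 245 TPM, then 136 and 151 TPM. Itgae was near the limit, at 0.918 and 0.490 TPM, then 0.597 and 0.589 TPM. Of 8 macrophage markers 6 could be tested and 5 rose, with a summed level of 88.7 to 92.9 TPM in untreated and 501 to 513 TPM in treated libraries. C1qa was at 37.2 and 36.8 TPM in untreated and 168 and 174 TPM in treated libraries. Ms4a7 was at 10.3 and 9.19 TPM, then 94.9 and 89.6 TPM, and C1qb and C1qc were also far higher with treatment. Fcgr1 (0.356 and 0.299 TPM, then 4.76 and 4.66 TPM) reached the limit only through the treated libraries. The macrophage receptor gene Csf1r, not tested, was at 0.272 TPM in NT01 and 0.469 TPM in NT02 and was listed at 0 after treatment. Mertk, also not tested, stayed under 0.0387 TPM. Summed markers of T cells were at 0.678 to 1.01 TPM in untreated and 1.47 to 1.59 TPM in treated libraries, and the 1 of 3 that could be tested, Cd3d, rose. Of 3 epithelial markers the 2 tested fell, and the summed level was 10.3 to 11.6 TPM in untreated and 7.66 to 7.74 TPM in treated libraries. Of 4 plasmacytoid dendritic cell markers 2 were tested, 1 rising and 1 falling, with a summed level of 16.9 to 17.3 TPM and 16.4 to 16.7 TPM. The rising one, Pacsin1, reached the limit only through the treated libraries (0.402 and 0.318 TPM in untreated, 3.90 and 4.02 TPM in treated). None of 3 fibroblast markers reached the limit, and their sum stayed between 0.120 and 0.191 TPM. Cd3e, Cd3g, Col1a2, Dcn and Krt8 were listed at 0 in every library. The part of these markers in the results was not tested. In bulk RNA, fewer cells that express a gene and less of its RNA per cell cannot be told apart.

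Poly(I:C) was accompanied by more rises than falls among the TRIM genes. Of the 39 genes, 19 rose (48.7%) and 6 fell (15.4%), while 14 did not pass the test; over all tested genes 28.4% rose and 32.4% fell. A gene rose or fell here where its adjusted p was under 0.05 in limma (Benjamini-Hochberg over all 12520 genes). The changes were moderate: 6 genes rose 2-fold or more as measured in log2(TPM + 1) (15.4%, against 5.69% of all tested genes) and 0 fell that far (against 2.76%). The median log2 fold change of TPM + 1 (poly(I:C) minus untreated, called the log2 change from here on) was 0.22 for the TRIM genes and -0.02 for all tested genes. The summed TPM of the 39 genes was 1108 and 1047 in untreated and 1628 and 1565 in treated libraries. This sum was thus 1.48 times as high in the treated libraries, a ratio in which the most abundant genes weigh most. The values of the groups did not overlap for 32 of the 39 genes (82.1%), a share near that of all tested genes (81.3%). No label says whether the samples of a group came from separate cultures; the p-values therefore reflect the spread of these libraries alone. With 2 libraries in each group, the smallest two-sided p of an exact permutation test is 0.333.

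**Figure D1:**
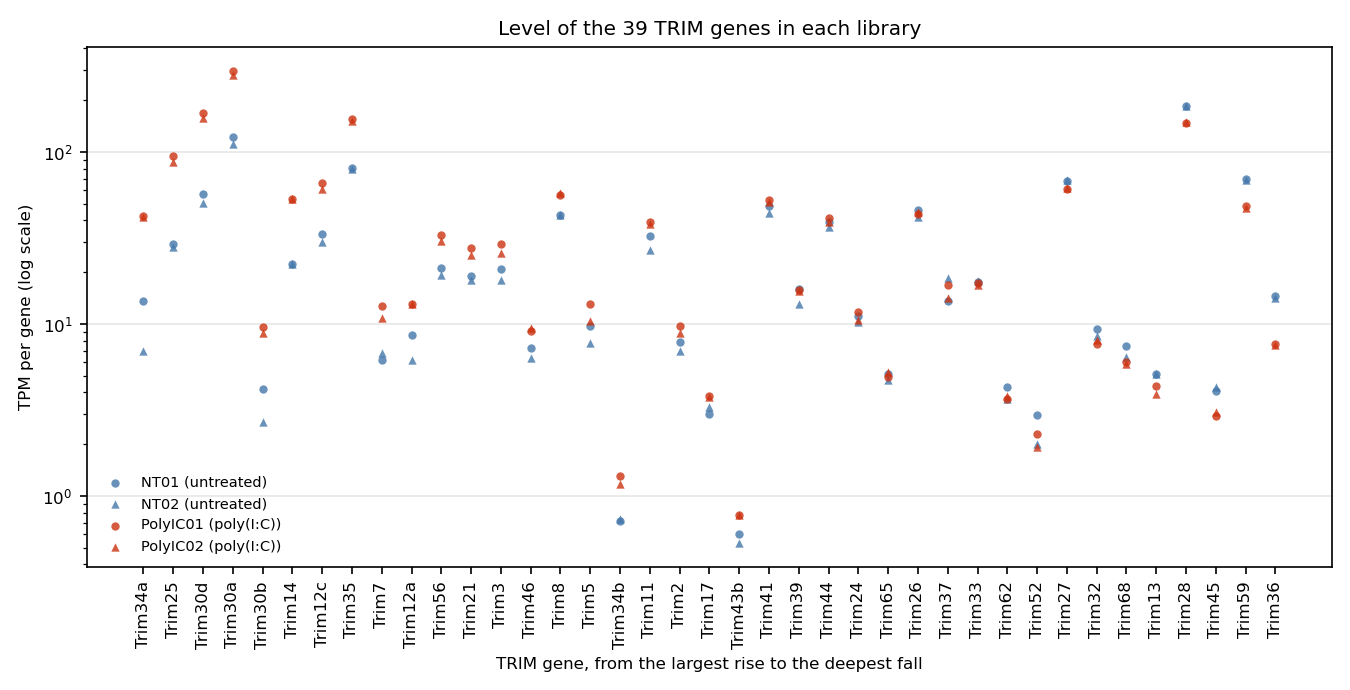
Level of each of the 39 TRIM genes in TPM (vertical log axis) in the 2 untreated libraries (blue) and the 2 treated libraries (red), ordered from the largest rise to the deepest fall. The red points lie clearly above the blue ones from Trim34a to Trim12a, the groups mix in the middle, and Trim36 and Trim59 at the right lie lower with poly(I:C).

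The 6 genes that rose at least 2-fold were Trim34a, Trim25, Trim30d, Trim30a, Trim30b and Trim14. Trim25, the ligase that takes part in RIG-I signalling and is a cofactor of the antiviral protein ZAP, had 29.2 TPM in NT01 and 28.1 TPM in NT02, rising to 94.2 TPM in PolyIC01 and to 86.9 TPM in PolyIC02. Both treated libraries stood far above both untreated ones, with a 3.16-fold higher mean level (log2 change 1.63 with SE 0.051, limma adjusted p = 7.90e-06). Trim25 spans bases 88999403 to 89020294 of chromosome 11 (GRCm38.p6; all positions here are from RefSeq). Trim14, which lacks a RING domain and acts as an adaptor beside MAVS at mitochondria, was at 22.2 and 22.3 TPM in untreated and 53.3 and 53.4 TPM in treated cells. Its replicates were nearly identical, and its log2 change was 1.22 (SE 0.040, adjusted p = 8.53e-06 in limma).

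Trim30a had the highest mean level of the family. In mouse macrophages its product promotes degradation of the TAB2 and TAB3 adaptors and so dampens NF-kB signalling. It was at 123 and 111 TPM in untreated and 297 and 281 TPM in treated libraries (log2 change 1.30 with SE 0.058, limma adjusted p = 2.95e-05). Its neighbour Trim30d was at 56.9 and 50.7 TPM in untreated and 168 and 158 TPM in treated libraries (log2 change 1.58 with SE 0.064, limma adjusted p = 2.08e-05). Trim30b was far lower, at 4.17 and 2.69 TPM in untreated and 9.60 and 8.81 TPM in treated cells (log2 change 1.22 with SE 0.17, limma adjusted p = 0.00202). All 3 genes kept a gap between the groups that was wider than the distance between replicates.

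The log2 change was largest for Trim34a, a relative of the interferon-inducible human TRIM34, but its untreated values were apart: 13.6 TPM in NT01 and 6.98 TPM in NT02, against 42.4 and 41.6 TPM in the treated libraries. The mean level was 4.09-fold higher with poly(I:C) (log2 change 2.00 with SE 0.32, limma adjusted p = 0.00876). The call was lost without PolyIC01 (adjusted p = 0.154) and without PolyIC02 (adjusted p = 0.143), while the log2 change was then 1.98 and 2.01. Nearly all of this level was assigned to 2 predicted transcripts; the curated one held 2.71% of the gene's TPM without and 0.902% with poly(I:C).

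Of these 6 genes 4 lie together in a cluster on mouse chromosome 7, between 104218795 and 104507853. The cluster holds 10 genes of the family, in the order Trim6, Trim34a, Trim5, Trim12a, Trim34b, Trim12c, Trim30b, Trim30c, Trim30a and Trim30d, and 8 of them passed the expression limit. Of those 8 genes 7 rose (median log2 change 1.10), and 1, Trim5, did not pass. Of the 31 genes elsewhere in the genome 12 rose and 6 fell, with a median of 0.09. Both sets of counts are to be read against all tested genes, of which 28.4% rose and 32.4% fell. The difference between the cluster and the rest was not tested, because the genes are not independent replicates. Copies within the cluster are similar in sequence, so the division of TPM between them is uncertain, and the same reads may lie behind more than 1 of these rises. Their sum is not free of that division either, because TPM takes account of transcript length and the copies may differ in length. The sum was 250 and 216 TPM in untreated and 610 and 574 TPM in treated libraries. The summed level was 2.54-fold higher with poly(I:C), against 1.19-fold for the sum of the other 31 genes. The cluster's share of all TRIM transcript went from 21.6% to 37.1%.

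**Figure D2:**
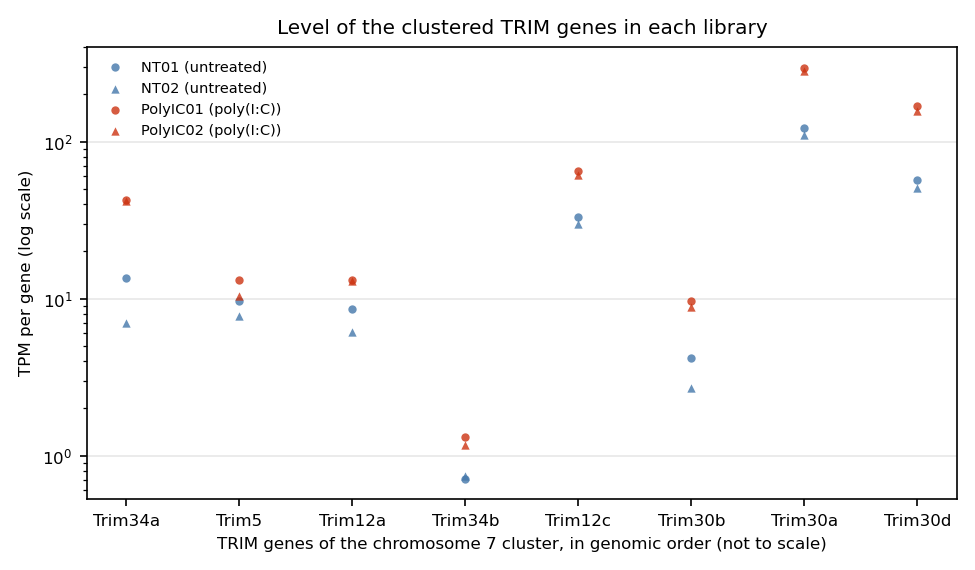
TPM (vertical log axis) of the 8 clustered TRIM genes that passed the limit, in genomic order with equal spacing, in the 2 untreated (blue) and the 2 treated (red) libraries. Levels span from about 1 TPM for Trim34b to 281 and 297 TPM for Trim30a in treated cells, and the red points lie above the blue ones for each gene, by the narrowest margin for Trim5.

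Within the cluster, Trim12c, whose product is known in mouse to raise interferon and NF-kB signalling with TRAF6, was at 33.2 and 30.1 TPM in untreated and 65.5 and 61.0 TPM in treated libraries (log2 change 0.98 with SE 0.063, limma adjusted p = 8.52e-05). Trim12a, its close copy, had a lower level and rose less, from 7.37 ± 1.74 to 13.0 ± 0.0221 TPM (log2 change 0.76; errors of this form are the SD of the 2 libraries of a group). Trim34b was near the limit, with 0.724 ± 0.0154 TPM in untreated and 1.24 ± 0.103 TPM in treated cells (0.38, adjusted p = 0.0169), a call that was lost without PolyIC01 (adjusted p = 0.102). Trim5, the mouse gene that carries the name of the primate capsid restriction factor, was at 9.72 and 7.79 TPM in untreated and 13.1 and 10.4 TPM in treated libraries. Its groups lay close together without overlapping (log2 change 0.39 with SE 0.14, limma adjusted p = 0.0636). With curated transcripts alone its log2 change was -0.77 (adjusted p = 0.0681), since the curated transcript was at 2.48 and 2.48 TPM in untreated and 1.66 and 0.572 TPM in treated cells and the higher values came from predicted ones.

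The promoters of these genes were searched because so many of the clustered genes rose. RefSeq promoter windows (GRCm38.p6) of 250 bases before to 50 bases after a transcription start were at hand for 29 of the 39 genes. The interferon-stimulated response element (ISRE), the sequence bound by interferon-activated STAT and IRF complexes, was searched on both strands as the letters GAAA, any 2 bases and GAAA. It was found for 9 of the 29 genes (31.0%), and for 1079 of 27025 genes with a window (3.99%). The 9 genes were Trim2, Trim5, Trim12a, Trim12c, Trim21, Trim26, Trim30a, Trim30d and Trim34a. Of these, 6 are neighbours in the cluster, several with nearly the same sequence around the match, so they do not count as separate finds. Outside the cluster 3 of 21 genes with a window held the letters (14.3%). Among genes with a window the letters were found for 7 of 14 that rose, of which 5 lie in the cluster, for 0 of 5 that fell and for 2 of 10 that did not pass. Outside the cluster they were found for 2 of 7 that rose. The share among all tested genes that rose or fell was not counted, so this split has no background to be read against. Trim25 had a window without these letters, and Trim14 had no window in the table. The gamma-activated site, searched as TTCNNNGAA, was found for 2 of the 29 genes, Trim45 and Trim46, and for 9.55% of all genes with a window; it shared no gene of the family with the ISRE letters. A match of these letters is a description of the sequence and was not tested as a binding site. The stretches around the match are printed 5′ to 3′ on the strand of the gene, with the match in capitals, to show how alike the clustered genes are; TTTC, any 2 bases and TTTC are the same letters read from the other strand, and for Trim21, which lies outside the cluster, 2 overlapping matches form the capitals.
Trim30a, chr7:104465185-104465264, minus strand: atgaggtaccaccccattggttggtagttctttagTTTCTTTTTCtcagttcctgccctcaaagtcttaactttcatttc
Trim30d, chr7:104507846-104507925, minus strand: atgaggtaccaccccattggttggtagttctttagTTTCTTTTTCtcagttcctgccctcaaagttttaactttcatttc
Trim12c, chr7:104353334-104353413, minus strand: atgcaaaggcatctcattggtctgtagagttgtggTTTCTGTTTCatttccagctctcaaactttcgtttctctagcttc
Trim12a, chr7:104315446-104315520, minus strand: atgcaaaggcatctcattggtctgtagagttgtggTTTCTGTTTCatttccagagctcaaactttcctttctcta
Trim5, chr7:104288111-104288190, minus strand: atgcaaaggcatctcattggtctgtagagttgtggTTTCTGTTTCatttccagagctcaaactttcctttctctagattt
Trim34a, chr7:104244432-104244506, plus strand: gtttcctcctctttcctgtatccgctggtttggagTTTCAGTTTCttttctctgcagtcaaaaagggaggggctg
Trim21, chr7:102565433-102565504, minus strand: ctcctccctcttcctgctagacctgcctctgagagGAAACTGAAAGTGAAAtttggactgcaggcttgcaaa

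Aligned on the match without gaps, the stretches of Trim30a and Trim30d were the same at 79 of 80 bases, and those of Trim12a and Trim5 at all 75 bases compared. Trim12c and Trim5 were the same at 75 of 80 bases. Trim34a was the least alike, with 30 of 75 bases shared with Trim12a and 27 of 75 with Trim30a. Trim5 and Trim12a thus shared this stretch letter for letter, while Trim12a passed the test and Trim5 did not; whether the 2 genes differ in their change was not tested. The match lay 27 bases before the start of Trim30a and 32 bases before that of Trim30d, counted from the end of the match nearer to the start. Trim30a has another window, at a start further into the gene, with a match that began at base 3, the start itself being base 1. In Trim34a and Trim12a it began at base 11, counted in the same way. All these distances refer to the start of the window, which need not be the outermost start of the gene.

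No protein sequence was examined here, so a gene of a class may lack the domain that names it. All 8 clustered members were placed in the PRY-SPRY class, and 14 more members of this class, Trim25 among them, lie elsewhere. Of these 14 genes 6 rose, 1 fell and 7 did not pass (median log2 change 0.17), while over all tested genes 28.4% rose and 32.4% fell. Trim35, known in mouse to limit IRF7-dependent interferon production, was among the most abundant members, at 80.9 and 79.1 TPM in untreated and 155 and 151 TPM in treated libraries. Its libraries were tight and its mean level was 1.91-fold higher (log2 change 0.93 with SE 0.032, limma adjusted p = 9.79e-06). Trim21, the cytosolic antibody receptor that directs antibody-coated virus to the proteasome, was at 19.0 and 17.9 TPM in untreated and 27.8 and 25.1 TPM in treated cells. Its rise was smaller than that of the clustered Trim30 genes, at a log2 change of 0.49 with an SE of 0.068 (limma, adjusted p = 0.00162).

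Trim7, whose product binds glycogenin, rose from 6.49 ± 0.402 to 11.8 ± 1.31 TPM (log2 change 0.77). Trim11 rose from 29.7 ± 3.87 to 38.7 ± 0.846 TPM (0.37), a call lost without PolyIC01 (adjusted p = 0.0679 in limma). Trim41, a ligase for protein kinase C, was at 46.2 ± 2.78 and 51.7 ± 0.903 TPM; its log2 change of 0.16 (adjusted p = 0.0408) lost its call under 6 of 10 alternative settings, among them leaving out NT02, PolyIC01 or PolyIC02 (adjusted p = 0.144, 0.149 and 0.0843). In contrast to these rises, Trim27, which ubiquitinates a subunit of the endosomal WASH complex, fell slightly, from 67.7 and 68.8 TPM to 61.2 and 61.3 TPM (log2 change -0.15, adjusted p = 0.00869). With curated transcripts alone, which hold 1.23% of its untreated TPM, the log2 change of Trim27 was 0.06 (adjusted p = 0.723).

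**Figure D3:**
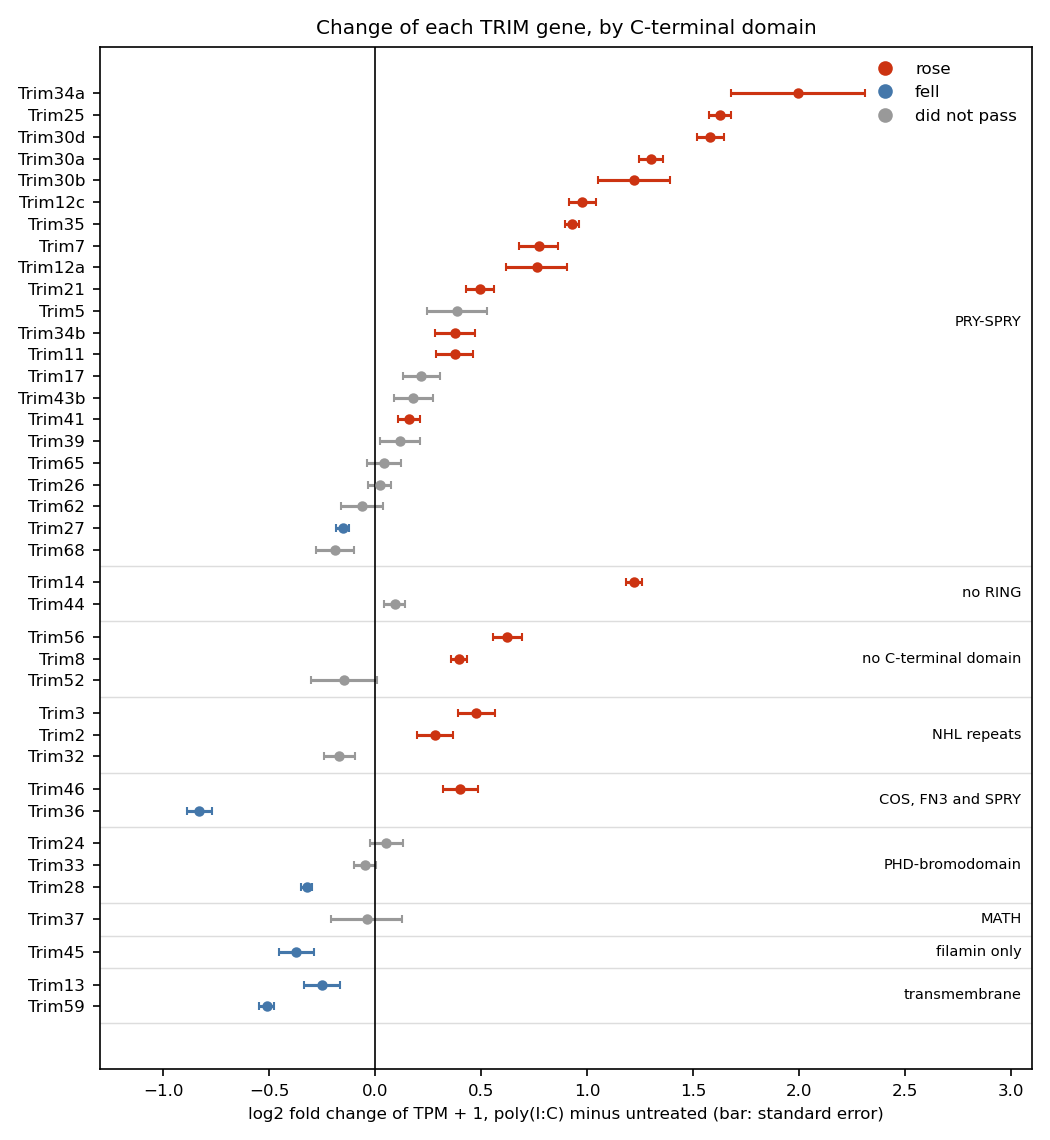
Log2 fold change of TPM + 1 (poly(I:C) minus untreated, horizontal axis, bars are standard errors from limma) for each TRIM gene, grouped by C-terminal domain; red genes rose, blue genes fell and grey genes did not pass. Genes that lack a RING form a group of their own, whatever their C-terminal domain. All genes past a log2 fold change of 1 were classed as PRY-SPRY genes except Trim14, which was placed with the genes that lack a RING. The falls are spread over 5 of the groups.

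Members with other domains moved in both directions. Trim56, a RING protein without a known C-terminal domain that modifies the DNA sensing proteins cGAS and STING, was at 21.1 and 19.3 TPM in untreated and 33.0 and 30.3 TPM in treated cells. Its groups were well apart (log2 change 0.62 with SE 0.067, limma adjusted p = 0.000633). Trim8, of the same group and a partner of the cytokine signalling inhibitor SOCS1, rose from 43.0 ± 0.249 to 56.9 ± 1.20 TPM (0.40). Of 3 NHL-repeat genes, Trim3 rose from 19.4 ± 1.89 to 27.4 ± 2.30 TPM (0.48) and Trim2 from 7.43 ± 0.626 to 9.24 ± 0.609 TPM (0.28). Trim2 lost its call under 4 of 10 alternative settings. These were no filter on low values (limma adjusted p = 0.0710), curated transcripts only (limma adjusted p = 0.0536), and leaving out NT02 or PolyIC01. The microtubule-associated genes with a COS box went apart: Trim46, which bundles microtubules at the start of axons, rose from 6.79 ± 0.620 to 9.28 ± 0.285 TPM (0.40), and Trim36 fell. With curated transcripts alone the call of Trim46 was lost (adjusted p = 0.281).

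Among the genes that fell, Trim36 fell most, from 14.5 and 14.2 TPM to 7.68 and 7.57 TPM, which left 0.532 of the untreated level (log2 change -0.83 with SE 0.059, limma adjusted p = 0.000125). Trim59, a membrane-anchored member with known links to proliferation, fell from 68.7 ± 0.622 to 47.8 ± 1.24 TPM (-0.51, adjusted p = 0.000127). Trim28, or KAP1, the corepressor that KRAB zinc finger proteins recruit to silence endogenous retroviruses, led the family in untreated cells, at 184 and 185 TPM. It was at 147 and 149 TPM with poly(I:C) (log2 change -0.32 with SE 0.026, limma adjusted p = 0.000194), so that Trim30a, Trim30d and Trim35 all stood above it in both treated libraries. Its PHD-bromodomain relatives Trim24 and Trim33, regulators of nuclear receptors and of SMAD signalling, were at 10.6 ± 0.583 and 11.1 ± 0.839 TPM and at 17.6 ± 0.146 and 17.0 ± 0.346 TPM, and neither passed (adjusted p = 0.600 and 0.466). Trim45, with a filamin domain, fell from 4.17 ± 0.146 to 3.00 ± 0.126 TPM (-0.37), and this call was lost without PolyIC01 (adjusted p = 0.0719). Trim13, an endoplasmic reticulum ligase, was at 5.11 ± 0.0246 and 4.13 ± 0.325 TPM (-0.25, adjusted p = 0.0457). Its call was lost under 6 of 10 alternative settings, among them leaving out any of the 4 libraries.

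The 14 genes that did not pass had log2 changes of at most 0.39 in size, the largest being that of Trim5. Trim26, which is known to promote degradation of nuclear IRF3, was at 45.7 and 41.7 TPM in untreated and 43.8 and 44.9 TPM in treated cells, with both groups mixed (log2 change 0.02, SE 0.054). This gene carries the ISRE letters in its promoter window, as listed above. Trim65, a ligase of the RNA sensor MDA5, was at 4.91 ± 0.252 and 5.08 ± 0.214 TPM. Trim44, which lacks a RING and stabilises MAVS, was at 37.7 ± 1.76 and 40.2 ± 1.20 TPM, and the centrosomal regulator Trim37 at 16.1 ± 3.54 and 15.5 ± 2.02 TPM. Trim39, a ligase linked to cell cycle control, was at 14.4 ± 2.01 and 15.7 ± 0.0797 TPM. Trim62, which activates the adaptor CARD9, was at 3.97 ± 0.451 and 3.75 ± 0.119 TPM. Among the others, Trim17 was at 3.12 ± 0.207 and 3.79 ± 0.0524 TPM, Trim43b at 0.566 ± 0.0494 and 0.774 ± 0.00451 TPM and Trim52 at 2.47 ± 0.659 and 2.11 ± 0.272 TPM. Trim32, a ligase mutated in a human muscular dystrophy, was at 8.96 ± 0.568 and 7.85 ± 0.268 TPM, and Trim68 at 6.90 ± 0.716 and 5.91 ± 0.143 TPM. The groups overlapped for 7 of these 14 genes, and a p that misses the threshold does not show that the others did not change.

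The other 27 symbols lay under the limit. Of these, 5 (Trim29, Trim31, Trim43a, Trim55 and Trim61) were listed at 0 in all 4 libraries, and 12 were above 0 but under 0.05 TPM in mean: Trim6, Trim9, Trim10, Trim16, Trim38, Trim50, Trim54, Trim58, Trim60, Trim71, Trim75 and Trim80. The muscle genes Trim54 and Trim55 and the embryonic gene Trim71 were thus at or near 0, as was Trim38, a regulator of TLR and interferon signalling, at 0.0220 and 0 TPM in untreated and 0.0233 and 0 TPM in treated cells. Between 0.05 TPM and the limit lay Trim15, Trim40, Trim42, Trim43c, Trim47, Trim63, Trim66, Trim67, Trim69 and Trim72. Of these, Trim42 was at 0.162 and 0.0977 TPM in untreated and 0.531 and 0.495 TPM in treated libraries, and Trim69 was listed at 0 in both untreated libraries and at 0.217 and 0.207 TPM in the treated ones. These low levels were not tested. Just inside the limit were Trim43b (0.670 TPM in mean), Trim34b (0.982) and Trim52 (2.29), and just outside it Trim43c (0.347), Trim42 (0.322) and Trim72 (0.270). Trim23 and Trim30c, in the RefSeq gene table, had no matching transcript and were not analysed here.

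Family members whose symbols do not begin with Trim also rose. Pml, the TRIM protein that organises PML nuclear bodies, was at 55.3 and 49.2 TPM in untreated and 143 and 136 TPM in treated cells, with a wide gap between groups (log2 change 1.40 with SE 0.061, limma adjusted p = 2.28e-05). Mid1, a microtubule-bound ligase, was at 26.9 and 20.6 TPM in untreated and 41.6 and 38.8 TPM in treated cells (log2 change 0.75 with SE 0.13, limma adjusted p = 0.00641). Mid1 lost its call without PolyIC01 (adjusted p = 0.0527 in limma), which left 1 called gene, Pml. Mid2 and Mefv lay under the limit, with no value above 0.128 TPM. For the lists that follow, the values to read against are those of all tested genes, of which 28.4% rose and 32.4% fell, with a median of -0.02. Of 9 tested genes of PML nuclear bodies 5 rose (55.6%), 3 fell (33.3%, near the share of all genes) and 1 did not pass (median log2 change 0.27). The largest rises were in Sp140, a chromatin reader of the Sp100 family (77.0 ± 1.24 to 233 ± 7.16 TPM, 1.59), and Daxx, a histone chaperone (41.0 ± 0.142 to 121 ± 7.03 TPM, 1.53).

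Of 14 tested genes listed around Trim25 and RIG-I signalling 10 rose (71.4%), 0 fell and 4 did not pass (median log2 change 0.57). The list is wider than direct partners of Trim25. It also holds Ifih1, the gene of MDA5 (log2 change 2.89), Dhx58 (2.64) and downstream genes such as Irf7. Irf7 (5.03) and the gene of RIG-I itself, Ddx58 (3.69), had the largest changes. Irf7 was at 0.232 and 0.247 TPM in untreated and 41.4 and 37.5 TPM in treated libraries. Irf7 and Ikbke, with untreated means of 0.240 and 0.0654 TPM, reached the limit only through the treated libraries. The limit thus favoured their being counted as rises. The following genes of the list were named after their values were seen. Rnf135, or Riplet, another ligase of RIG-I, was at 10.7 and 9.84 TPM in untreated and 30.7 and 30.6 TPM in treated cells (log2 change 1.49, adjusted p = 1.70e-05 in limma), a change close in size to that of Trim25. Zc3hav1, the gene of ZAP, rose from 102 ± 1.37 to 179 ± 6.39 TPM (0.81), while the adaptor gene Mavs was at 14.9 ± 0.570 and 13.7 ± 0.255 TPM and did not pass (-0.11, adjusted p = 0.150). Zcchc3 and Rnf125 were listed at 0 in all 4 libraries. All 7 tested interferon-activated transcription factor genes rose (median log2 change 1.49), led by Irf7 and Stat2 (50.1 ± 4.38 to 204 ± 10.6 TPM, 2.00). Irf8 was called only just under the threshold, with a log2 change of 0.068 (limma adjusted p = 0.0497).

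Of 14 tested partners of Trim28, 4 rose (28.6%), a share near that of all tested genes (28.4%), 7 fell (50%, against 32.4%) and 3 did not pass (median log2 change -0.12). Morc3, an ATPase that silences endogenous retroviruses, rose from 90.5 ± 7.24 to 187 ± 11.2 TPM (1.04), and Setdb1, the histone methyltransferase that KAP1 recruits, rose from 59.1 ± 3.04 to 90.6 ± 4.54 TPM (0.61). The heterochromatin protein 1 genes Cbx1 (-0.42), Cbx3 (-0.56) and Cbx5 (-0.32) fell, as did Trim28 itself; they were named after their values were seen, and the call of Cbx1 was lost with curated transcripts alone (adjusted p = 0.257 in limma). Of 16 genes of ubiquitin and the E2 enzymes that serve RING ligases 5 rose (31.2%), 7 fell (43.8%) and 4 did not pass (median log2 change -0.02), against 28.4% and 32.4% of all tested genes. The share that rose lay near that of all tested genes. Both counts depended on the processing: in limma without trend or robust moderation 3 rose and 5 fell. The largest changes were a rise of Ube2l6, the E2 enzyme of ISG15 conjugation (71.6 ± 3.83 to 260 ± 6.84 TPM, 1.85), and a fall of Ube2d3, an E2 enzyme of many RING ligases (17.1 ± 0.299 to 9.20 ± 1.59 TPM, -0.84).

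**Figure D4:**
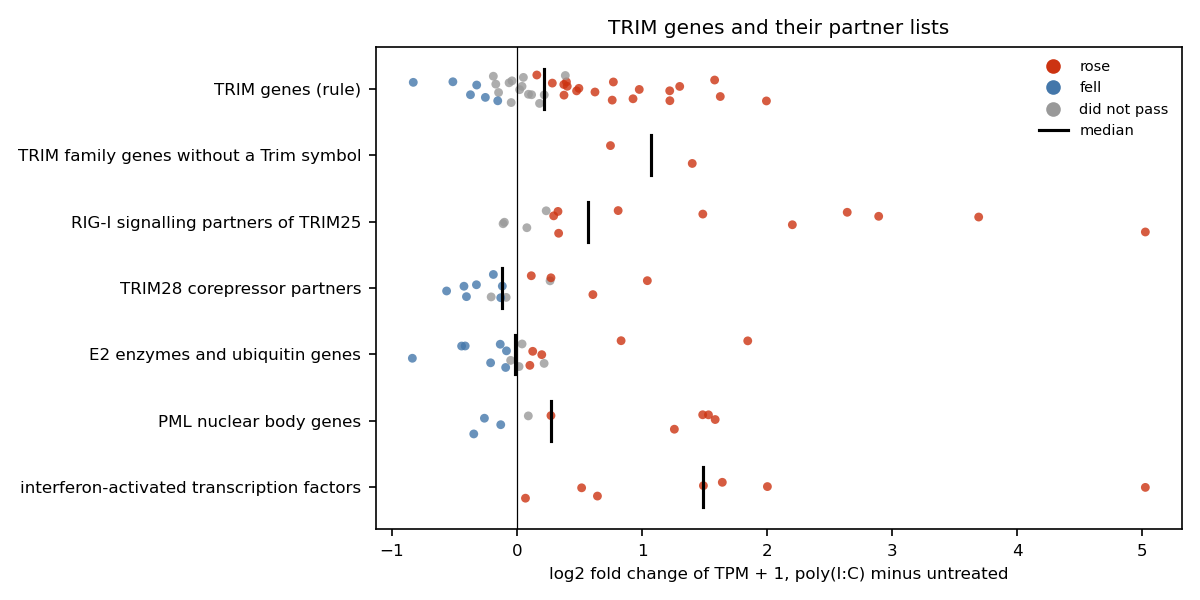
Log2 fold change of TPM + 1 (poly(I:C) minus untreated, horizontal axis) for each tested gene of the TRIM family and of the 6 partner lists; red genes rose, blue genes fell, grey genes did not pass and the black line is the median of the list. The medians run from -0.12 for the Trim28 partners to 1.49 for the interferon-activated transcription factors, and the TRIM genes lie between with a median of 0.22.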

How the data were processed

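Stranded libraries of polyadenylated RNA were sequenced from 6 samples, per the labels' protocols. Per the submitters' processing notes, the tools were kallisto 0.42.4 and bcl2fastq 2.20.0.422 and the build was GRCm38. The deposited values are TPM per RefSeq transcript: the table is named as FPKM, but each column sums to 1000000. No source used here says whether strand was used in counting, so antisense partners may share reads. The header leaves 2 of 6 value columns without a settled group, and those 2 were not used; NT01 is replicate 1, and the other replicate numbers are not settled.

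Of 107384 transcripts 86722 (80.8%) were paired with a gene symbol through their accessions, versions dropped, in RefSeq's table for GRCm38.p6, and held 91.8% to 92.2% of each library's TPM. TPM were summed per symbol, and the 12520 genes averaging 0.5 TPM or more were tested with limma 3.58.1 in R 4.3.3 on log2(TPM + 1), with an intensity trend and robust moderation, on 2 residual degrees of freedom. This scale understates changes of low genes. A fold is a ratio of mean TPM. Tables and plots were made with pandas 2.3.3, matplotlib 3.10.9 and numpy 2.4.6 in Python 3.11.15.

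The members, lists and naming rule were chosen with earlier results of these data known. Per-library values are given for members that changed at least 2-fold, the 3 with the highest mean, and a set of known antiviral or regulatory TRIM genes; each list is represented by its 2 passing genes with the largest change, and names beyond these were added after the values were seen. C-terminal domains follow the textbook classification, and no protein sequence was examined. Trim14 and Trim44, which lack a RING, were classed apart whatever their C-terminal domain, so the PRY-SPRY counts leave them out.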

Additional observations from a re-analysis of the deposited data

How the results depend on the processing

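No paired analysis was possible because the header does not settle the replicate numbers of 3 of the 4 columns. Under 10 alternatives, 13 of the 19 TRIM genes that rose and 3 of the 6 that fell (Trim28, Trim36 and Trim59) kept their call wherever they were tested. The number that rose lay between 14 and 21 and the number that fell between 4 and 6 when 1 library was left out; a lone library was then assumed to vary like the other group. Without PolyIC01 14 rose and 4 fell. The median log2 fold change, 0.22, was 0.31 with a pseudocount of 0.1, 0.14 with curated transcripts only, and 0.21 to 0.25 with 1 library left out. Centring each library on its median moved the groups by -0.0012 relative to each other. Of the called genes 1 turned, Trim27 (0.061 with curated transcripts only, 1.23% of its untreated TPM).

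Among genes that did not pass, the log2 fold change turned sign for Trim5 (-0.77) and Trim24 (-0.24) with curated transcripts only. With 1 library left out it lay between -0.017 and 0.25 for Trim39, -0.020 and 0.12 for Trim24, -0.0034 and 0.084 for Trim65, -0.043 and 0.085 for Trim26, -0.25 and 0.17 for Trim37, -0.16 and 0.029 for Trim62 and -0.34 and 0.047 for Trim52. Trim5 passed, as a rise, with centred libraries, without NT01 and without PolyIC02 (adjusted p = 0.0411, 0.0259 and 0.0237 in limma).

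In the partner lists, with 1 library left out, 1 to 2 family genes without a Trim symbol rose (1 without PolyIC01), 10 to 11 RIG-I partners rose, 4 to 5 Trim28 partners rose and 6 to 9 fell, 3 to 4 ubiquitin and E2 genes rose and 5 fell, 5 PML body genes rose and 3 fell, and 6 to 7 transcription factors rose; 0 fell in the lists not named with a fall. The ubiquitin and E2 genes that rose numbered 3 with centred libraries and 3 in limma without trend or robust moderation. The cause of these changes was not tested. The unknown depth limits what can be said of genes near the limit.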

Other observations

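Trim39 did not pass as a gene, but its curated transcripts stood differently in the libraries, a pattern chosen after the values were seen and not tested. Of its 2 curated transcripts, the one that held more TPM in untreated cells was at 11.0 and 13.0 TPM without and 4.07 and 6.02 TPM with poly(I:C). The other was at 4.88 and 0.00871 TPM without and 11.6 and 9.58 TPM with poly(I:C). The sum over both was 14.4 ± 2.01 TPM in untreated and 15.7 ± 0.0797 TPM in treated libraries (SD, n = 2 libraries per group). The untreated libraries themselves differed widely in the lower transcript, so how the table divides the gene between its transcripts is uncertain.

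In Trim12c the shares of the transcripts also moved, but unlike in Trim39 neither transcript was lower with poly(I:C). Its main curated transcript was at 33.2 and 30.1 TPM in untreated and 61.3 and 58.2 TPM in treated libraries. It held 100% of the gene's TPM to 3 digits in untreated and 94.4% in treated libraries. The remaining curated transcript was at 4.20 and 2.84 TPM in the treated libraries and under 0.00023 TPM in both untreated ones. This pattern was also chosen after the values were seen and was not tested.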
